A study of Homo sapiens with 16 samples.

Results

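The DUSP, SPRY and SPRED genes described here encode inhibitors of the mitogen-activated protein kinase (MAPK) pathway that cells make in response to the pathway itself. They were chosen by name, as the rows of DUSP1, DUSP4, DUSP5, DUSP6, SPRY1, SPRY2, SPRY4, SPRED1 and SPRED2 in both count tables, which are 9 of the 26364 genes listed. This choice was made with earlier results of these data known. All 9 passed the filter on low counts in both cell lines and were tested. Bulk poly(A) RNA-seq was measured in Ishikawa cells, which derive from a human endometrial adenocarcinoma, and in T-47D cells, from a human breast carcinoma. Both lines were kept in phenol-red-free medium with charcoal-stripped serum and then received 10 nM 17β-estradiol (E2), the main natural estrogen, for 0 h (vehicle), 2 h, 4 h or 8 h. Each of the 8 groups had 2 libraries, so that there were 16 in all, and the 0 h libraries of a line served as the control of its 3 later time points. Each line is 1 established line, and by the study's methods the lines were not authenticated.

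Growth factors bind receptor tyrosine kinases, which activate RAS and then the kinases RAF, MEK and ERK in turn. Active ERK switches on genes whose products act back on the pathway: DUSP proteins remove the phosphates from ERK or from the related kinases JNK and p38, while Sprouty (SPRY) and SPRED proteins act at the membrane, between the receptor and RAF. Transcripts of several of these genes are short-lived and are widely read as a record of recent ERK signaling, and estrogen is known to act on the same pathway in breast and endometrial cells.

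At 2 h of E2, transcripts of 4 of the 9 genes fell in each line, and every call was of a lower level. They were SPRY1, SPRY2, SPRY4 and DUSP6 in Ishikawa cells, and SPRY1, DUSP1, DUSP5 and SPRED2 in T-47D cells, with SPRY1 in common. Of all genes tested, 4.35% were called in Ishikawa cells and 1.74% were lower, and 9.30% were called in T-47D cells and 4.40% were lower. In T-47D cells 1 of the 9 genes was called without the 2 h replicate 1 and 2 were called without the 0 h replicate 2. The largest fall at 2 h was that of SPRY2 in Ishikawa cells, by 1.36 ± 0.12 on the log2 scale (SE), to 38.8% of its level at 0 h, and SPRY1 fell beside it to 40.3%. By 8 h, DUSP4 and SPRY2 had risen 2.43-fold each in T-47D cells, where neither had changed past the threshold at 2 h. SPRY2 was thus lower at all 3 time points in Ishikawa cells and higher at 8 h in T-47D cells. The difference in its change between the lines passed the test at each of the 3 time points. The calls of SPRY2 at 4 h and 8 h in Ishikawa cells and the difference at 4 h were lost without single libraries.

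Promoters were read from the RefSeq table for GRCh38.p14, as windows from 250 bases before to 50 bases after a gene's start. DUSP4 was left out of this reading and DUSP5 had no match. The other 7 of the 9 genes matched, with 11 windows. Shown are DUSP6, SPRY1 and SPRY2, which fell together at 2 h in Ishikawa cells, and DUSP1, which fell in T-47D cells and whose window holds TGACGTCA. For genes with several windows the most 5′ one is shown. Capitals mark matches, on either strand, to the motifs searched. The windows are chr5:172771146-172771445, minus strand, for DUSP1, chr12:89352452-89352751, minus strand, for DUSP6, chr4:123396545-123396844, plus strand, for SPRY1, and chr13:80341077-80341376, minus strand, for SPRY2.
DUSP1: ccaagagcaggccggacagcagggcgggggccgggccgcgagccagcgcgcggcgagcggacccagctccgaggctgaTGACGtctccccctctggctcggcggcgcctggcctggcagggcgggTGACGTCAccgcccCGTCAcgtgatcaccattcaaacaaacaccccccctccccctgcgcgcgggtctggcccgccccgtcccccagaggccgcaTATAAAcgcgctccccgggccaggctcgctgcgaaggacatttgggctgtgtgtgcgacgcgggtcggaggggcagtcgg
DUSP6: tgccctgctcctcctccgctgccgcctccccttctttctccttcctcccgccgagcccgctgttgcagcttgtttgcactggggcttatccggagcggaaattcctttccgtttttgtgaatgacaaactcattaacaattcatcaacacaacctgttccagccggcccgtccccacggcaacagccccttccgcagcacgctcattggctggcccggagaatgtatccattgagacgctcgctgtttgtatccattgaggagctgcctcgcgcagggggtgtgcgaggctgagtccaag
SPRY1: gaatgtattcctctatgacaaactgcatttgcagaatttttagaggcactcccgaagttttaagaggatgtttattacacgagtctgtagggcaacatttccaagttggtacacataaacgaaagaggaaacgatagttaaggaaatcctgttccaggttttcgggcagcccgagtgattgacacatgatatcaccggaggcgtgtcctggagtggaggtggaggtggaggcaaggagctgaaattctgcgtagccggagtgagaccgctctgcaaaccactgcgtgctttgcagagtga
SPRY2: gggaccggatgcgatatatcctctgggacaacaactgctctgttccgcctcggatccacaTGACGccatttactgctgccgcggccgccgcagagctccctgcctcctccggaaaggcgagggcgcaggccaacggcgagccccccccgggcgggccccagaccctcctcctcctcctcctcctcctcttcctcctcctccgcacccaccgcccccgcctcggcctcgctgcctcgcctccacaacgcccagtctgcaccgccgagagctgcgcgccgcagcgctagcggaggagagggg
The motifs were the full palindromic estrogen response element, the cyclic AMP response element TGACGTCA and its core TGACG, the AP-1 site TGANTCA, the site CCGGAAG of ETS factors, the CArG box bound by serum response factor and the TATA box, searched as TATAAA. Every TGACGTCA also counts as a match of the core TGACG. DUSP1 held TGACGTCA 125 bases before its start, further core matches, and TATAAA 30 bases before it. Of all 35116 promoter windows of 300 bases, 1.85% held TGACGTCA, 24.6% its core, 11.5% TATAAA, 7.71% the AP-1 site and 1.29% a CArG box. SPRY2 held the core in its shown window, SPRY4 and SPRED2 held it in their most 5′ windows, which are not shown, and another window of SPRED2 held the AP-1 site and TATAAA. The windows shown for DUSP6 and SPRY1 held none of these letters, while another window of SPRY1 held CCGGAAG, which 10.3% of all windows hold. No window of the 7 genes held the full estrogen response element, which was found in 0.0570% of all windows.

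On hg19, the build the authors used, DUSP1 lies at chr5:172195099-172198198, DUSP5 at chr10:112257665-112271291 and DUSP6 at chr12:89741012-89746278, by the GENCODE annotation on GRCh37. The Sprouty genes lie at chr4:124317950-124324915 for SPRY1, chr13:80910111-80915261 for SPRY2 and chr5:141689992-141706020 for SPRY4. SPRED1 lies at chr15:38545037-38649450 and SPRED2 at chr2:65537985-65659771. DUSP5, SPRY1 and SPRED1 are on the plus strand and the others on the minus strand. In this annotation SPRY4-AS1 overlaps SPRY4 on the opposite strand. Genes without a symbol overlap DUSP1 and DUSP6 on the opposite strand and SPRED2 on the same strand. None of these is listed under its annotated name in the count tables. The strand setting of the counting is not given in the sources used here, and whether their reads were counted to a member was not tested.

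Libraries held 41177912 to 64148903 counts. Levels are given as CPM, which relate a count to the library's total, with totals scaled by TMM over all 16 libraries. Changes were tested within a line with edgeR's quasi-likelihood test, on all genes that passed the filter, and a gene was called at an adjusted p (Benjamini-Hochberg) under 0.05. The labels do not say that replicates were separate cultures, so p-values measure the spread between these libraries, which may be technical. In such bulk libraries, fewer cells with a transcript and less of it per cell cannot be told apart. Among the counts between 1 and 10, 71.2% to 74.6% were even numbers, so a count need not stand for 1 fragment. All 5 endometrial markers had a median over 1 CPM in Ishikawa cells and none did in T-47D cells, where SOX17 and EMX2 were at 0. Of the luminal breast markers, 3 of 5 were over 1 CPM in T-47D cells and 2 of 5 in Ishikawa cells. The 2 in Ishikawa cells were FOXA1 and TRPS1, with medians of 12.7 and 34.9 CPM against 384 and 1427 in T-47D cells. GATA3 had 0 to 4 counts in Ishikawa cells and a median of 1155 CPM in T-47D cells. ANKRD30A and TFAP2B had medians under 1 CPM in T-47D cells too. As a check of the treatment, PGR, the progesterone receptor, rose at 8 h by 3.75 ± 0.18 on the log2 scale in Ishikawa cells. At 8 h in T-47D cells GREB1 rose by 2.15 ± 0.05, TFF1 by 1.70 ± 0.29 and PDZK1 by 1.68 ± 0.13. Only 3 of these 4 check genes were tested in the Ishikawa line. At each of 2 h, 4 h and 8 h, 2 of the 3 were called higher there and 1 was not called. The T-47D line had all 4 tested, with 3 called higher at 2 h and 4 at both later times.

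Without E2 the lines differed in every one of the 9 genes, as they did in 81.9% of all 17090 genes tested over both lines (39.5% higher and 42.4% lower in T-47D cells), so that this count is near the background. DUSP6, the Sprouty genes and the SPRED genes were lower in T-47D cells, and the nuclear phosphatases DUSP1, DUSP4 and DUSP5 were higher there. The largest difference was that of SPRY4. It had 50.5 and 60.6 CPM in the 0 h libraries of Ishikawa cells and 0.254 and 0.272 CPM in those of T-47D cells, where each library held 11 counts. Its level was 209-fold lower in T-47D cells, a log2 difference of -7.71 ± 0.20 (SE). DUSP6 was 17.9-fold lower, SPRY2 16.1-fold, SPRY1 12.7-fold, SPRED1 8.56-fold and SPRED2 1.83-fold. DUSP1 was 5.15-fold higher in T-47D cells, DUSP4 2.85-fold and DUSP5 2.22-fold. For none of the 9 genes did the 0 h libraries of the lines overlap. With 2 libraries a line this is no test, and the share of all genes without such overlap was not counted.

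Divided by the length of their exons, which allows levels of different genes to be set side by side, the genes followed another order in each line. In Ishikawa cells the order of the 0 h level per kb was SPRY1 (24.6 CPM per kb), SPRED2 (18.5), DUSP6 (13.7), SPRY4 (11.2), SPRY2 (9.91), SPRED1 (7.11), DUSP5 (3.71), DUSP1 (1.89) and DUSP4 (0.298). The libraries of neighbours in this order did not overlap, although SPRY4 and SPRY2 changed places when the length of the canonical transcript was used. In T-47D cells SPRED2 (10.1 CPM per kb), DUSP1 (9.75) and DUSP5 (8.24) led. SPRY1 followed at 1.94, and DUSP4, SPRED1, DUSP6 and SPRY2 lay between 0.851 and 0.612, with SPRY4 last at 0.0531. DUSP4 and SPRED1 overlapped, as did SPRED1 and DUSP6, and with the canonical transcript SPRY2 moved from rank 8 to rank 6.

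**Figure D1:**
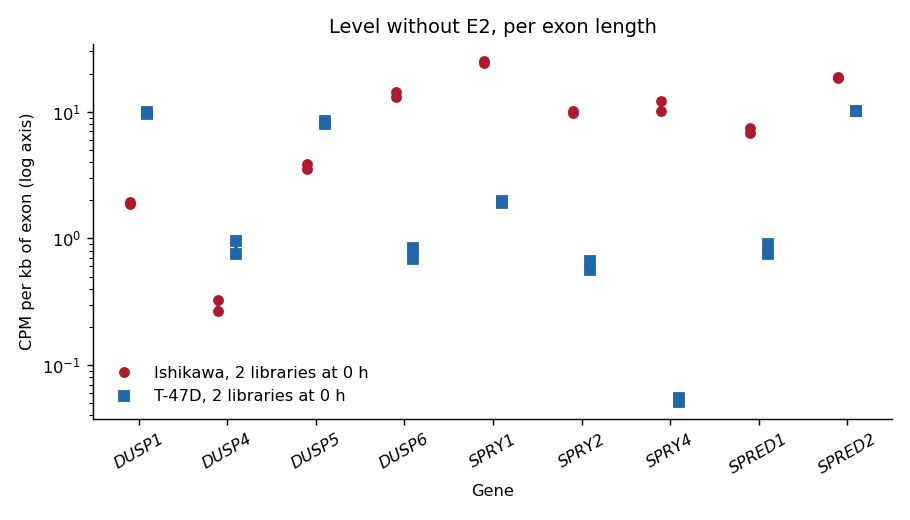
Level of each gene without E2 in CPM per kb of exon, on a log axis, with 1 point for each of the 2 libraries at 0 h of Ishikawa (circles) and T-47D cells (squares). SPRY4 had 11.2 CPM per kb in Ishikawa cells against 0.0531 in T-47D cells, and only DUSP1, DUSP4 and DUSP5 were higher in T-47D cells.

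Among the Sprouty genes, whose proteins hold back signaling from receptor tyrosine kinases to RAS and RAF, SPRY1 and SPRY2 made the largest changes in Ishikawa cells. At 2 h in this line, 4 of the 9 genes were called and all were lower, against 4.35% of all 15787 genes tested (2.61% higher, 1.74% lower). SPRY1 had 75.9 and 72.6 CPM without E2, 29.6 and 30.2 after 2 h, 44.5 and 43.3 after 4 h and 42.4 and 48.2 after 8 h. Every treated library of SPRY1 lay below both 0 h libraries, and the pair at 2 h lay lowest. Its log2 fold changes after 2, 4 and 8 h were -1.30 ± 0.07, -0.75 ± 0.07 and -0.72 ± 0.07 (SE), with adjusted p of 1.57e-08, 4.91e-06 and 7.65e-06 in that order.

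SPRY2 had 31.4 and 32.3 CPM without E2, 12.2 and 12.5 after 2 h, 26.8 and 21.0 after 4 h and 20.4 and 25.9 after 8 h in Ishikawa cells. Its treated libraries also lay below both 0 h libraries, with the lowest pair at 2 h and a gap between the replicates at both late times. The log2 fold change of SPRY2 was -1.36 ± 0.12 at 2 h (adjusted p = 2.91e-06), -0.41 ± 0.12 at 4 h (adjusted p = 0.0305) and -0.47 ± 0.12 at 8 h (adjusted p = 0.0104). At 2 h, 0.304% of the genes tested had a lower fold change than SPRY2 and 0.367% a lower one than SPRY1. The later calls of SPRY2 rested on single libraries. The call at 4 h was lost without either 0 h library (log2 fold changes of -0.43 and -0.38) or the 4 h replicate 2 (-0.25), and its adjusted p ran from 0.000198 to 0.224 over its alternatives. The call at 8 h was lost without the 0 h replicate 2 (-0.44) or the 8 h replicate 1 (-0.29), with adjusted p from 8.45e-06 to 0.128.

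SPRY4 had 50.5 and 60.6 CPM without E2, 41.2 and 40.9 after 2 h, 63.1 and 53.8 after 4 h and 50.1 and 62.4 after 8 h in Ishikawa cells. The 2 h libraries of SPRY4 lay below all the others, and those of 4 h and 8 h overlapped the 0 h libraries. It fell by 0.43 ± 0.11 on the log2 scale at 2 h (adjusted p = 0.0334). This call was lost without the 0 h replicate 2, where the fold change was -0.29, and without either 2 h replicate, with adjusted p from 5.67e-07 to 0.455 over the alternatives. Later, the log2 fold changes of SPRY4 were 0.08 (4 h) and 0.01 (8 h), with 95% intervals of -0.15 to 0.31 and -0.21 to 0.24.

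In T-47D cells SPRY1 fell and SPRY2 rose. At 2 h in this line, 4 of the 9 genes were called and all were lower, against 9.30% of all 15594 genes tested (4.90% higher, 4.40% lower). SPRY1 had 5.75 and 5.99 CPM without E2, 3.60 and 3.94 after 2 h, 3.32 and 4.07 after 4 h and 3.06 and 3.61 after 8 h. All 6 treated libraries of SPRY1 lay below the 0 h libraries, close to each other. The log2 fold changes were -0.65 ± 0.15, -0.68 ± 0.15 and -0.81 ± 0.16 at 2, 4 and 8 h, with adjusted p of 0.0104, 0.00356 and 0.000586. SPRY1 lost its call at 2 h without the 0 h replicate 2 or the 2 h replicate 1 (adjusted p from 0.00135 to 0.119 over its alternatives) and its call at 4 h without the 4 h replicate 1 (0.000244 to 0.0766).

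SPRY2 had 2.12 and 1.81 CPM without E2, 2.38 and 1.91 after 2 h, 2.84 and 2.74 after 4 h and 4.39 and 5.17 after 8 h in T-47D cells. Its libraries at 2 h overlapped those at 0 h, those at 4 h lay above both, and those at 8 h lay highest. SPRY2 rose at 8 h by 1.28 ± 0.18 on the log2 scale (adjusted p = 2.96e-05). At 4 h its log2 fold change was 0.50 ± 0.19 and missed the threshold (adjusted p = 0.065), which it passed with no filter on low counts or with the 4 h and 8 h libraries as 1 group (0.0125 to 0.283 over its alternatives). SPRY4 had 11 to 26 counts in a T-47D library, and its changes were not detectable at this depth. The 95% intervals of its log2 fold changes were -0.64 to 1.54 at 2 h, -0.78 to 1.36 at 4 h and -1.24 to 1.04 at 8 h.

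**Figure D2:**
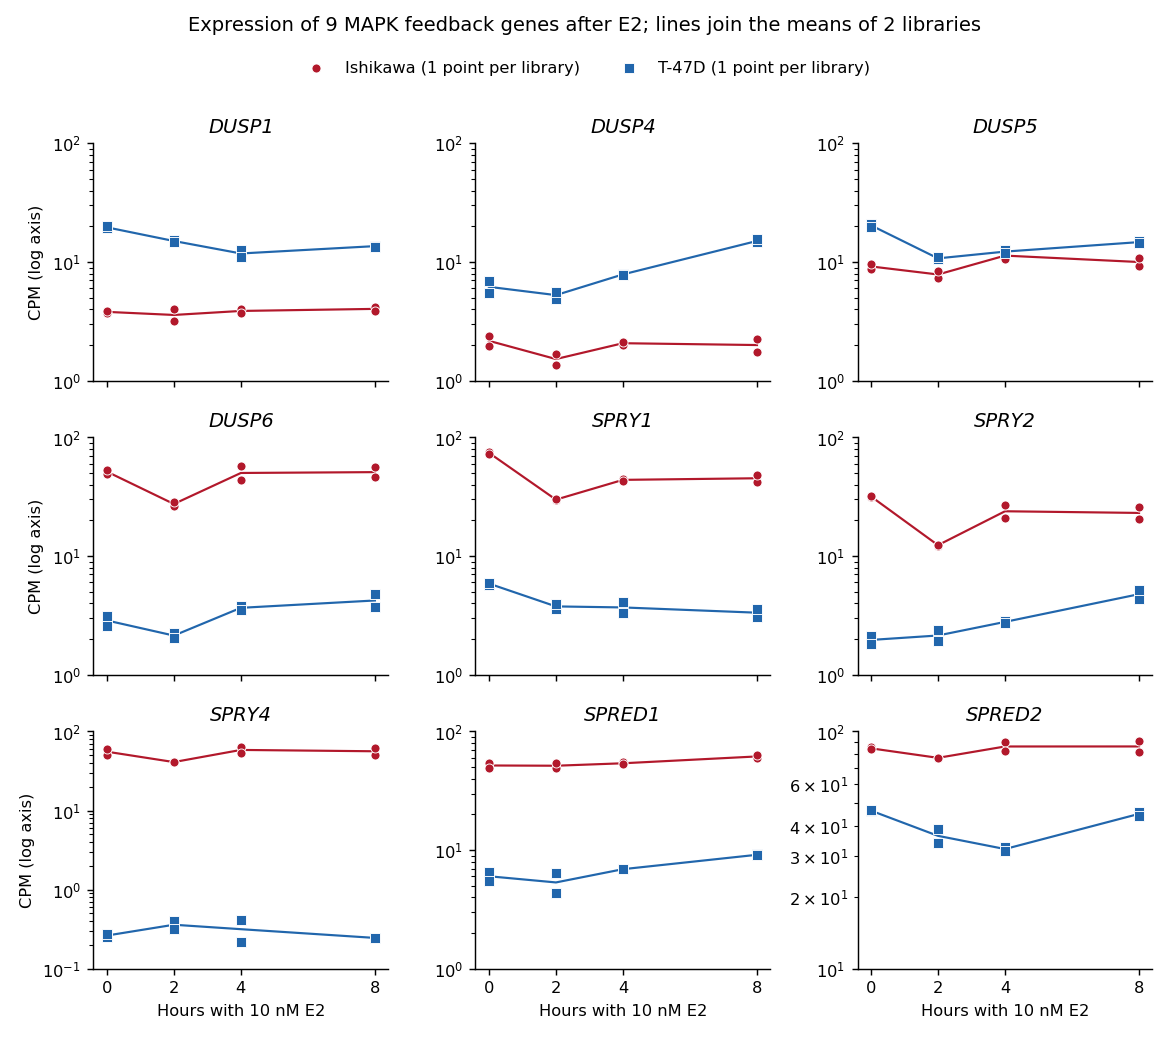
CPM of each of the 9 genes against hours with 10 nM E2, on log axes that differ between panels, with 1 point per library for Ishikawa (circles) and T-47D cells (squares) and lines through the means of the 2 libraries. In Ishikawa cells DUSP6, SPRY1 and SPRY2 have their lowest points at 2 h, and in T-47D cells DUSP4 and SPRY2 have their highest points at 8 h.

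DUSP6 encodes a phosphatase of the cytoplasm that acts mainly on ERK. In Ishikawa cells it had 49.4 and 53.7 CPM without E2, 26.7 and 28.3 after 2 h, 57.0 and 43.4 after 4 h and 46.1 and 56.0 after 8 h. The 2 h libraries of DUSP6 lay far below all 6 others, which overlapped each other. It fell by 0.90 ± 0.11 on the log2 scale at 2 h (adjusted p = 0.00011), and its later log2 fold changes were -0.03 (4 h) and -0.02 (8 h), with 95% intervals of -0.27 to 0.20 and -0.25 to 0.22. In T-47D cells DUSP6 had 3.14 and 2.60 CPM without E2, 2.25 and 2.03 after 2 h, 3.80 and 3.53 after 4 h and 4.76 and 3.70 after 8 h. Here too the 2 h libraries lay lowest, but the log2 fold change of -0.43 ± 0.19 missed the threshold (adjusted p = 0.179). At 8 h DUSP6 was higher in T-47D cells by 0.56 ± 0.17 (adjusted p = 0.0222), a call that was lost without the 0 h replicate 2 or the 8 h replicate 1, with log2 fold changes of 0.44 and 0.37, and with 4 h and 8 h as 1 group (adjusted p from 0.00613 to 0.201 over its alternatives).

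DUSP1, DUSP4 and DUSP5 encode phosphatases of the nucleus. DUSP5 acts on ERK, DUSP4 on ERK and JNK, and DUSP1, an immediate-early gene, on p38, JNK and ERK. In T-47D cells DUSP5 had 21.0 and 19.8 CPM without E2, 10.6 and 10.9 after 2 h, 12.6 and 11.9 after 4 h and 15.0 and 14.5 after 8 h. All treated libraries of DUSP5 lay below the 0 h libraries, and its level was lowest at 2 h, at 52.7% of the 0 h level, and 72.2% at 8 h. The log2 fold changes were -0.93 ± 0.09, -0.74 ± 0.08 and -0.47 ± 0.08 at 2, 4 and 8 h, with adjusted p of 5.05e-07, 4.13e-06 and 0.000327, and each call held under every alternative tried. In Ishikawa cells DUSP5 lay between 7.30 and 12.0 CPM and was not called at any time against 0 h. Both of its 2 h libraries lay below those of 0 h there and both of its 4 h libraries above them, with log2 fold changes of -0.21 ± 0.13 and 0.31 ± 0.13.

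DUSP1 had 19.2 and 20.1 CPM without E2, 15.4 and 14.7 after 2 h, 12.6 and 11.0 after 4 h and 13.8 and 13.5 after 8 h in T-47D cells. Every treated library of DUSP1 lay below the 0 h libraries, with the lowest pair at 4 h. It fell by 0.39 ± 0.09, 0.73 ± 0.09 and 0.53 ± 0.09 on the log2 scale at 2, 4 and 8 h, with adjusted p of 0.00778, 9.3e-06 and 0.000204. Its call at 2 h was lost without the 0 h replicate 2 or either 2 h replicate (0.00219 to 0.101 over its alternatives). In Ishikawa cells DUSP1 stayed between 3.18 and 4.18 CPM, the log2 fold changes were -0.08, 0.03 and 0.08, and the 95% intervals were -0.45 to 0.28, -0.34 to 0.40 and -0.28 to 0.44.

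DUSP4 had 6.91 and 5.47 CPM without E2, 4.88 and 5.65 after 2 h, 7.95 and 7.79 after 4 h and 14.6 and 15.5 after 8 h in T-47D cells. The libraries at 2 h overlapped those at 0 h, those at 4 h lay above them and those at 8 h far above all others. DUSP4 rose at 8 h by 1.28 ± 0.12 on the log2 scale (adjusted p = 2.53e-07). At 4 h its log2 fold change of 0.34 ± 0.12 missed the threshold (adjusted p = 0.0586), which it passed with no filter, with 4 h and 8 h as 1 group or without the 0 h replicate 1 (0.0127 to 0.399 over its alternatives). In Ishikawa cells DUSP4 had 60 to 114 counts per library and 1.37 to 2.38 CPM. Its log2 fold change at 2 h was -0.50 ± 0.24 (adjusted p = 0.307), with both 2 h libraries below the 0 h libraries, and no time point was called.

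SPRED1 and SPRED2 encode membrane proteins related to Sprouty, and SPRED1 brings the RAS inhibitor NF1 to the membrane. SPRED1 was the only one of the 9 genes called higher in both lines in the comparisons with 0 h, each time at 8 h only. In T-47D cells it had 6.61 and 5.44 CPM without E2, 6.36 and 4.32 after 2 h, 6.90 and 6.92 after 4 h and 9.21 and 9.07 after 8 h. The 8 h libraries lay above all others, and SPRED1 rose by 0.60 ± 0.15 on the log2 scale (adjusted p = 0.00528). In Ishikawa cells it had 54.2 and 49.2 CPM without E2 and 59.9 and 63.4 after 8 h, with values of 48.9 to 55.0 at 2 h and 4 h. Both 8 h libraries again lay above all others, and SPRED1 rose there by 0.25 ± 0.07 (adjusted p = 0.0213). This call was lost without the 0 h replicate 2 or the 8 h replicate 2, with log2 fold changes of 0.19 and 0.20, and with 4 h and 8 h as 1 group, with 0.16 (adjusted p from 0.0105 to 0.171 over its alternatives). In T-47D cells the call of SPRED1 was lost without the 0 h replicate 2, with 0.47, and with 4 h and 8 h as 1 group, with 0.41 (adjusted p from 3.37e-05 to 0.0874).

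SPRED2 had 46.2 and 46.6 CPM without E2, 33.9 and 38.8 after 2 h, 32.5 and 31.4 after 4 h and 45.9 and 44.0 after 8 h in T-47D cells. Its 2 h and 4 h libraries lay well below the others, and those of 8 h lay just below those of 0 h. SPRED2 fell by 0.36 ± 0.07 on the log2 scale at 2 h (adjusted p = 0.00114) and by 0.54 ± 0.07 at 4 h (adjusted p = 9.07e-06). At 8 h the log2 fold change was -0.05 ± 0.07, with a 95% interval of -0.18 to 0.09. The call of SPRED2 at 2 h was lost without the 2 h replicate 1, with a log2 fold change of -0.26 (adjusted p from 7.22e-06 to 0.0711 over its alternatives). With 4 h and 8 h as 1 group its log2 fold change was -0.28 and was not called (adjusted p = 0.123, from 9.99e-14 to 0.123 over the alternatives at 4 h). In Ishikawa cells SPRED2 had 77.2 to 91.3 CPM, and its log2 fold changes lay between -0.12 and 0.03 with no call.

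**Figure D3:**
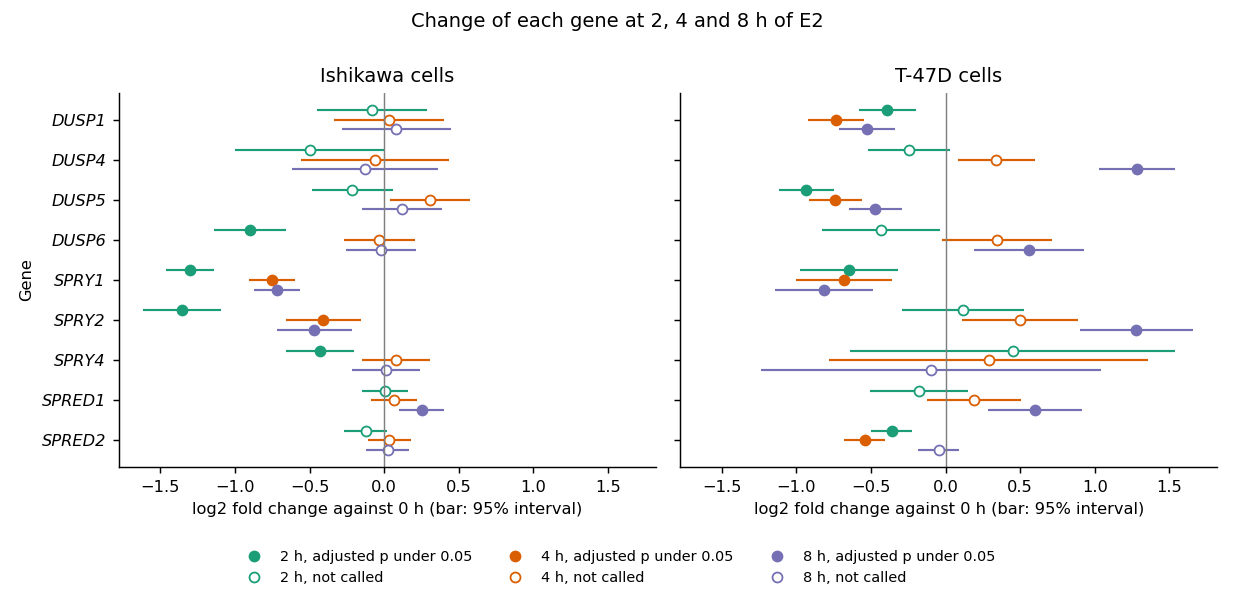
Log2 fold change of each gene against 0 h at 2, 4 and 8 h of E2 in Ishikawa (left) and T-47D cells (right), with points for the fitted value, filled where the adjusted p was under 0.05, and bars for the 95% interval. In Ishikawa cells the points of DUSP6, SPRY1 and SPRY2 at 2 h lie farthest left, and in T-47D cells those of DUSP4 and SPRY2 at 8 h lie farthest right.

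Counted over the 9 genes, 2 were called at 4 h in Ishikawa cells, both lower, against 14.3% of all genes tested (7.66% higher, 6.60% lower). At 8 h 3 were called, of which 2 were lower, against 22.1% (12.0% higher, 10.1% lower). In T-47D cells, 4 were called at 4 h, all lower, against 21.5% (11.1% higher, 10.4% lower), and 7 at 8 h, with 4 higher and 3 lower, against 29.7% (15.4% higher, 14.3% lower). Over 9 genes, the counts at 4 h and 8 h in Ishikawa cells were near these shares of all genes. The median log2 fold change of the 9 genes at 2 h was -0.43 in Ishikawa cells, and it was -0.36 in T-47D cells, while that of all genes tested lay between -0.01 and 0.00 in both. By 8 h the medians of the 9 genes were 0.01 and -0.05. The 3 comparisons of a line share its 0 h libraries. With Early for genes called at 2 h and Late for those called only at 4 h or 8 h, 4 genes were Early Down and 1 was Late Up (SPRED1) in Ishikawa cells. In T-47D cells, 4 were Early Down and 4 were Late Up, the latter being DUSP4, DUSP6, SPRY2 and SPRED1.

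**Figure D4:**
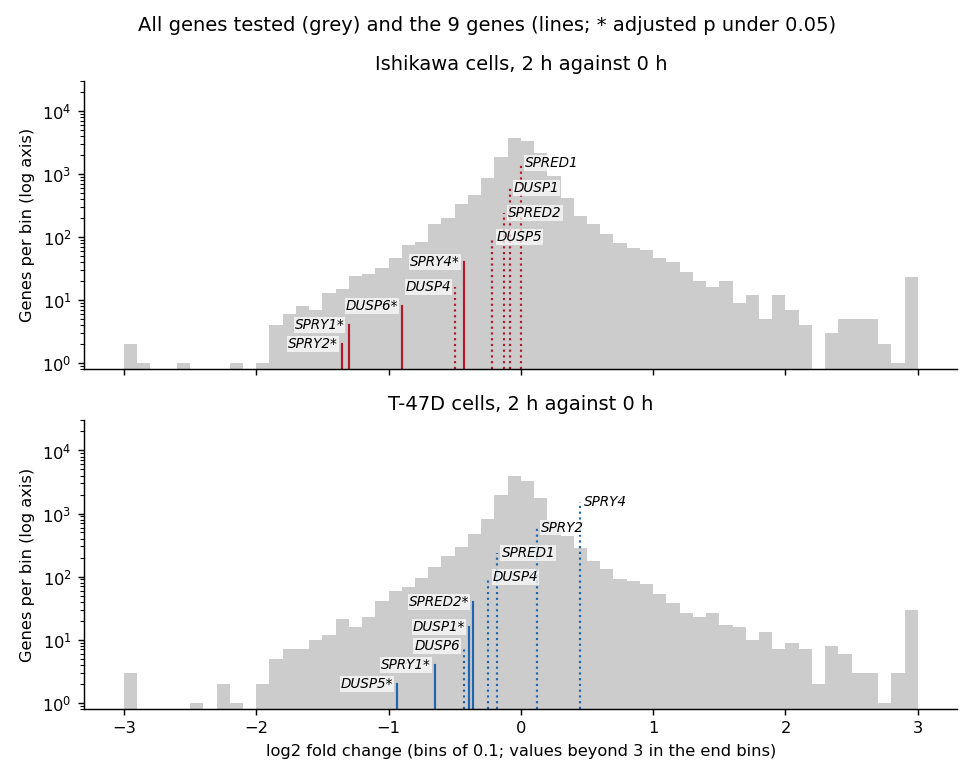
Log2 fold changes at 2 h against 0 h in Ishikawa (top) and T-47D cells (bottom), as the number of all tested genes per bin of 0.1 on a log axis (grey), with a line at the value of each of the 9 genes, solid and starred where the adjusted p was under 0.05. The height of the lines has no meaning, and the median of the 9 genes was -0.43 (top) and -0.36 (bottom).

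The mean of the 4 h and 8 h groups was also compared with 2 h. The 0 h group is no term of this contrast, although its libraries enter the filter, the scaling and the estimate of the spread. The 2 h libraries enter both this contrast and the comparison of 2 h with 0 h. A rise after 2 h is therefore not separate evidence from a fall at 2 h. In Ishikawa cells 5 of the 9 genes were called, each higher late than at 2 h, against 4.52% of all genes (2.13% higher, 2.39% lower). These were SPRY2 (log2 difference 0.92 ± 0.11), DUSP6 (0.87 ± 0.10), SPRY1 (0.57 ± 0.07), SPRY4 (0.47 ± 0.09) and DUSP5 (0.43 ± 0.11). SPRY1 nonetheless reached only 60.1% of its 0 h level over the late time points and SPRY2 73.8%, while DUSP6 reached 98.2% and SPRY4 103%. The calls of SPRY4 and DUSP5 were lost without either 2 h replicate, with adjusted p up to 0.151 and 0.444 and from 2.81e-10 and 0.00487, and that of DUSP5 also without the 4 h replicate 1 or the 8 h replicate 2.

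In T-47D cells 5 of the 9 genes were higher late than at 2 h, against 12.3% of all genes (6.91% higher, 5.37% lower). They were DUSP4 (log2 difference 1.06 ± 0.11), DUSP6 (0.88 ± 0.16), SPRY2 (0.77 ± 0.16), SPRED1 (0.57 ± 0.13) and DUSP5 (0.33 ± 0.08). DUSP6 and DUSP5 were thus called higher late than at 2 h in both lines. SPRY1, which was higher late than at 2 h in Ishikawa cells, had a log2 difference of -0.10 ± 0.14 in T-47D cells (adjusted p = 0.733). DUSP1 had a log2 difference of -0.24 ± 0.08 and missed the threshold (adjusted p = 0.0537). It was called lower late than at 2 h with RLE scaling, with no filter, with at least 10 counts in every library and without either 0 h replicate or the 4 h replicate 1 (adjusted p from 0.0307 to 0.335 over its alternatives). Without the 2 h replicate 2, only 2 of the 9 genes were called, and SPRY2, SPRED1 and DUSP5 were not. DUSP5 was not called without the 2 h replicate 1 either. Their adjusted p over the alternatives ran from 6.23e-05 to 0.0975 for SPRY2, from 3.59e-05 to 0.248 for SPRED1 and from 0.00454 to 0.134 for DUSP5.

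The late time points could be told apart in T-47D cells and hardly in Ishikawa cells. The 8 h libraries differed from the 4 h libraries in 533 genes of T-47D cells, DUSP4 (log2 difference 0.94 ± 0.12), SPRY2 (0.78 ± 0.17) and SPRED2 (0.50 ± 0.07) among them. In Ishikawa cells, edgeR called 2 genes, neither of them a member, and 554 genes had an unadjusted p under 0.05, of which SPRED1 was the only member. The Ishikawa libraries of 4 h and 8 h were also as close across their labels as within them. The root mean square log2 difference over genes was 0.328 between the 4 h replicate 2 and the 8 h replicate 1, 0.388 between the 4 h replicates and 0.354 between the 8 h replicates. Of these late libraries, the 4 h replicate 1 and the 8 h replicate 2 held the higher values of DUSP6, SPRY2, SPRY4 and SPRED2. With the 4 h and 8 h libraries as 1 group, SPRY1 and SPRY2 kept their calls in Ishikawa cells and SPRED1 lost its call at 8 h. The labels were used as given, and apart from that grouping, what the likeness of these libraries did to the values was not tested.

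Whether the change after E2 differed between the lines was tested as the interaction of line and time over all 16 libraries. SPRY2 differed at every time point. Its log2 fold change was higher in T-47D than in Ishikawa cells by 1.49 ± 0.24 at 2 h (adjusted p = 0.000457), by 0.92 ± 0.22 at 4 h (adjusted p = 0.0153) and by 1.74 ± 0.22 at 8 h (adjusted p = 1.22e-05). At 2 h, 3 of the 9 genes differed, against 2.67% of all 17090 genes tested (1.40% higher in T-47D cells, 1.28% lower). Besides SPRY2 these were SPRY1, which fell less in T-47D cells (0.67 ± 0.15), and DUSP5, which fell there and was not called in Ishikawa cells (-0.70 ± 0.15). At 4 h, 4 of the 9 genes differed, against 6.03% (3.21% higher, 2.83% lower), with differences of -1.04 ± 0.15 for DUSP5, -0.76 ± 0.18 for DUSP1 and -0.56 ± 0.10 for SPRED2. At 8 h, 4 differed against 10.0% (5.32% higher, 4.70% lower), and besides SPRY2 they were DUSP4 (1.41 ± 0.24), DUSP1 (-0.61 ± 0.17) and DUSP5 (-0.59 ± 0.15).

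DUSP6 fell at 2 h past the threshold in Ishikawa cells only, but the difference between the lines of 0.48 ± 0.24 was not called (adjusted p = 0.504, 95% interval -0.01 to 0.98). For SPRED1 at 8 h the difference was 0.35 ± 0.16 (adjusted p = 0.209). The interval of SPRY1 was -0.22 to 0.38 at 4 h and -0.40 to 0.21 at 8 h, so that no difference was detectable within that width. Several of the called differences rested on single libraries. At 2 h, that of DUSP5 was lost without the Ishikawa 2 h replicate 2 (adjusted p = 0.116), the T-47D 0 h replicate 1 or the T-47D 2 h replicate 1, over a range of 0.00102 to 0.116. That of SPRY1 at 2 h was lost without the Ishikawa 2 h replicate 1, the T-47D 0 h replicate 1 or the T-47D 2 h replicate 2 (adjusted p from 0.00114 to 0.111), and that of SPRY2 at 4 h without the Ishikawa 4 h replicate 2, the T-47D 0 h replicate 2 or the T-47D 4 h replicate 1 (0.000235 to 0.0935). DUSP1 lost its call at 4 h without the Ishikawa 4 h replicate 1 or the T-47D 4 h replicate 2 (0.00166 to 0.0674) and its call at 8 h without the Ishikawa 0 h replicate 2 or 8 h replicate 1, either T-47D 0 h replicate or either T-47D 8 h replicate (0.0105 to 0.0863). DUSP5 at 8 h lost its call without the Ishikawa 8 h replicate 2, the T-47D 0 h replicate 1 or the T-47D 8 h replicate 2 (0.00282 to 0.0625). The differences of SPRY2 at 2 h and 8 h, DUSP4 at 8 h, and DUSP5 and SPRED2 at 4 h held without any single library.

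**Figure D5:**
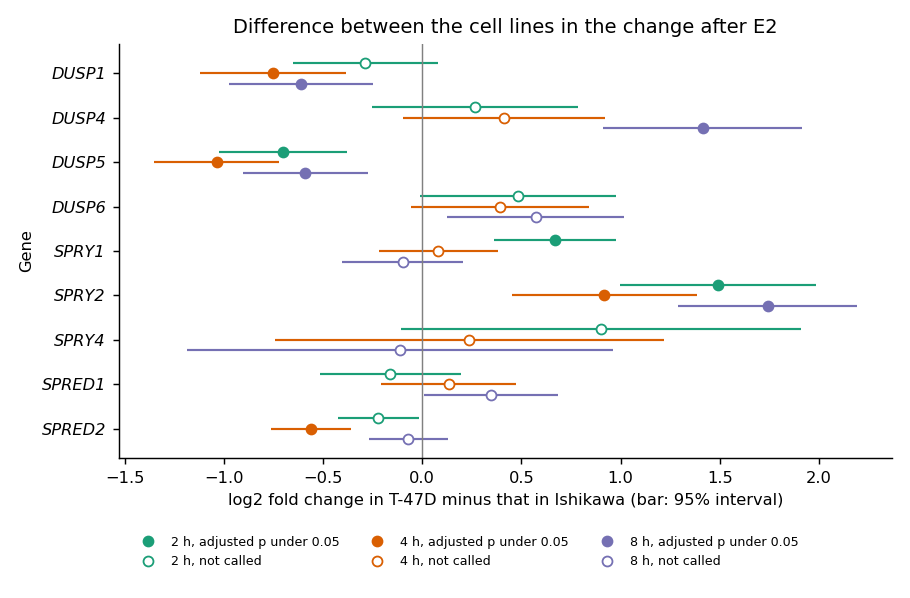
Log2 fold change against 0 h in T-47D cells minus that in Ishikawa cells for each gene at 2, 4 and 8 h, with filled points where the adjusted p was under 0.05 and bars for the 95% interval. SPRY2 lies right of 0 at all 3 time points, and DUSP5 left of it.

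The genes of most similar pattern were taken from 6657 genes that were tested in both lines and called against 0 h at any time, by Pearson's r of log2 CPM centred within each line over the 16 libraries. These libraries share their lines and time points, so r describes the likeness and carries no test. DUSP6 and SPRY2 had EPHA2 in common among their top 3, with r of 0.882 and 0.900, and their own r was 0.855. EPHA2, a receptor tyrosine kinase that is itself switched on by ERK, had 116 and 127 CPM without E2 and 70.6 and 71.4 after 2 h in Ishikawa cells, so that its 2 h libraries lay below those of 0 h. In T-47D cells EPHA2 had 1.13 and 1.26 CPM without E2 and 2.11 and 1.74 after 8 h, with the 8 h libraries above those of 0 h. It was picked for its likeness to DUSP6 and SPRY2 in these same libraries, so its levels only describe that likeness. SPRY2 also had ARHGAP11A (0.929) and SOCS3 (0.900), an inhibitor of cytokine receptors, and DUSP6 had KIAA0100 (0.889) and C11orf84 (0.872).

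SPRY1 was most like PDP1 (0.951), CITED2 (0.945), a transcriptional coregulator, and ZFP36L1 (0.938), which promotes the decay of mRNAs. DUSP5 was most like RNF144B (0.943), TRIB3 (0.921) and SESN2 (0.905), and DUSP4 was most like SUV39H1 (0.933), a histone methyltransferase, DNAJC9 (0.932) and MTHFD1 (0.925). For SPRED1 the first gene was GCSH (0.916) and for SPRED2 PLEK2 (0.914). The values of SPRY4 were the least shared, with ZNF84 first at 0.649. Its values in T-47D cells are limited by depth, at 11 to 26 counts per library. No member was among the top 3 of another.

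Levels of cell type markers moved with time as well. The summed level of the fibroblast and immune markers, which was mostly COL1A1, was 255 to 278 CPM at 0 h in Ishikawa cells, 217 to 236 at 2 h, 155 to 203 at 4 h and 166 to 188 at 8 h. It ran from 91.0 to 98.2 CPM at 0 h to 75.8 to 82.5 at 8 h in T-47D cells. CD3E was at 0 in all Ishikawa libraries and DCN had 0 to 2 counts there, while 3 of the 6 markers (COL1A1, COL3A1 and CD68) were over 1 CPM. In T-47D cells 2 of the 6 were (COL1A1 and CD68). Of the 3 fibroblast and immune markers tested in Ishikawa cells, 0, 2 and 2 were called lower at 2, 4 and 8 h. The shares of all genes called lower were 1.74%, 6.60% and 10.1%. In T-47D cells 0, 0 and 2 of 4 tested were called lower, against 4.40%, 10.4% and 14.3%. The summed endometrial markers in Ishikawa cells, mostly PAX8, were at 431 to 474 CPM at 0 h and 417 to 424 at 2 h. They were at 355 to 374 at 4 h and 359 to 369 at 8 h. Of these 5 markers 1 was called higher at 2 h, 1 lower at 4 h and 1 lower at 8 h. Lower calls made up 6.60% of all genes at 4 h and 10.1% at 8 h. The median log2 fold change of the 5 was -0.02 at 4 h and 0.08 at 8 h. The summed luminal breast markers of T-47D cells (GATA3, FOXA1 and TRPS1 over 1 CPM) were lowest at 2 h. They had 2387 to 2523 CPM then, against 3106 to 3140 at 0 h and 3021 to 3097 at 8 h. Of the 4 luminal markers tested in T-47D cells, 3 were called lower at 2 h, 3 at 4 h and 0 at 8 h. The shares of all genes called lower were 4.40%, 10.4% and 14.3%. The part of these markers in the changes of the 9 genes was not tested.

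The other genes of the pathway were read from lists written by role. Their counts stand beside the share of all genes called, in the order of the time points 4.35%, 14.3% and 22.1% for the Ishikawa line, then 9.30%, 21.5% and 29.7% for the T-47D line. Of the other MAP kinase phosphatases, both edgeR and DESeq2 called 0 of 5 in Ishikawa cells at 2 h, when the unadjusted p from edgeR was under 0.05 for 3. Of the same 5 genes, 3 fell in T-47D cells at 2 h. DUSP10, which acts on p38 and JNK, fell in T-47D cells by 0.96 ± 0.11 on the log2 scale at 4 h, and DUSP8 by 0.76 ± 0.07. In Ishikawa cells DUSP2, another nuclear phosphatase, rose at 4 h by 1.17 ± 0.22 and DUSP7, which acts on ERK, by 0.39 ± 0.08. The call of DUSP7 was lost without the 4 h replicate 1 (adjusted p from 0.000627 to 0.0544 over its alternatives). SPRY3 and SPRED3, which complete the Sprouty and SPRED families, were called by neither edgeR nor DESeq2 at any time. Of the 2, the unadjusted p from edgeR was under 0.05 for 1 at 2 h, for 0 at 4 h and for 1 at 8 h in Ishikawa cells, and for 0 at each time in T-47D cells.

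Of 7 other inhibitors of receptors and RAS, edgeR called 1 lower in Ishikawa cells at 2 h, and 2 lower in T-47D cells. They included CBLB, which tags receptors for breakdown and fell by 0.50 ± 0.09 on the log2 scale in Ishikawa cells, and ERRFI1, an inhibitor of the epidermal growth factor (EGF) receptor that fell by 0.32 ± 0.08 in T-47D cells. ERRFI1 lost its call without the 0 h replicate 2 (log2 fold change -0.23) or the 2 h replicate 1 (-0.27), with adjusted p from 0.00111 to 0.143 over its alternatives. NF1, which switches RAS off, fell by 0.23 ± 0.04 at 4 h in T-47D cells. Upstream of RAS, 2 of the 5 tested ligands of the EGF receptor were higher in Ishikawa cells at 8 h, as were 3 of 6 in T-47D cells, and every call was of a higher level. TGFA rose at 8 h by 1.88 ± 0.06 in Ishikawa cells and AREG by 1.54 ± 0.19 in T-47D cells.

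Of the receptor tyrosine kinases, 1 was called higher and 3 lower of 11 at 8 h in Ishikawa cells, and 1 higher and 5 lower of 11 in T-47D cells. FGFR2 fell by 1.27 ± 0.07 on the log2 scale and IGF1R rose by 0.89 ± 0.09 in Ishikawa cells, and ERBB2 fell by 0.96 ± 0.04 and FGFR4 by 0.81 ± 0.06 in T-47D cells. Of the adaptors and RAS genes, 5 of 11 were higher and 2 lower at 8 h in Ishikawa cells, and 1 was higher and 3 lower in T-47D cells. NRAS rose by 0.30 ± 0.07 and the adaptor GAB2 fell by 0.38 ± 0.08 in Ishikawa cells at 8 h. At 2 h in T-47D cells the adaptor FRS2 rose by 0.48 ± 0.05 and GAB1 fell by 0.44 ± 0.06.

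Of the kinases of the ERK cascade, edgeR and DESeq2 called 0 of 8 at each time in Ishikawa cells, where by edgeR the unadjusted p was under 0.05 for 0, 1 and 5 of them at 2, 4 and 8 h. In T-47D cells both called 0 of 8 at 2 h, where 1 had an unadjusted p under 0.05 by edgeR. At 4 h 2 of the 8 were called, MAP2K1 higher and ARAF lower, against 21.5% of all genes. ARAF, a kinase of the RAF family, fell by 0.14 ± 0.05 on the log2 scale, and this call was lost with 4 h and 8 h as 1 group and without any 1 of the 0 h, 2 h and 4 h libraries (adjusted p from 0.0242 to 0.335 over its alternatives). At 8 h 1 of the 8 was called, MAP2K1, which encodes MEK1 and rose by 0.33 ± 0.06. Of the JNK and p38 kinases, 1 was higher and 2 lower of 10 at 8 h in Ishikawa cells, against 22.1% of all genes called, and 1 was higher and 1 lower of 11 in T-47D cells, against 29.7%. MAPK11 fell by 0.66 ± 0.14 at 4 h in Ishikawa cells and MAPK9 rose by 0.39 ± 0.05 at 8 h in T-47D cells. MAPK11 lost its call without the 0 h replicate 2 or the 4 h replicate 1 (adjusted p from 7.1e-06 to 0.0877 over its alternatives).

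Of 14 transcription factors and other genes known to respond to ERK, 4 were lower and 1 higher at 2 h in Ishikawa cells, with a median log2 fold change of -0.54, and by 8 h 2 were lower and 5 higher. In T-47D cells 4 were lower and 5 higher at 2 h, with a median of -0.06. JUNB, a subunit of AP-1, had 64.3 and 69.2 CPM without E2 and 29.1 and 29.8 after 2 h in Ishikawa cells. Its 2 h libraries lay far below, and JUNB fell by 1.17 ± 0.09 on the log2 scale. In T-47D cells EGR1 fell at 2 h by 1.04 ± 0.31 (adjusted p = 0.0401), on a mean of 52.5 counts per library. This call of EGR1 was lost with DESeq2, in the fit restricted to 0 h and 2 h, with the replicate block and without each of the 4 libraries in turn, over adjusted p from 0.0105 to 0.288 and log2 fold changes from -1.36 to -0.78. MYC rose at 8 h in T-47D cells by 2.70 ± 0.11.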

How the data were processed

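The authors deposited raw read counts per gene, as 1 table per line. By the study's methods and the submitters' processing notes, reads were aligned to hg19 with HISAT2 and counted with featureCounts on UCSC Known Genes; versions and the strand setting are not given in the sources used here. All 16 columns were matched to samples by their titles. Genes were kept with edgeR's filterByExpr (15787 in Ishikawa cells, 15594 in T-47D cells, 17090 in both), scaled by TMM and tested with edgeR 4.0.16 quasi-likelihood tests in R 4.3.3, adjusted by Benjamini-Hochberg, with 1 fit per line and 1 over both for differences between lines. The replicate numbers were not used as a block, since same-numbered libraries did not deviate together. Log2 CPM used a prior count of 2. The SE is the fold change divided by the root of the F statistic. The fits were tested on simulated counts with known changes. The coefficient of variation between libraries that edgeR estimated was 6.45%, 5.02% and 5.82%. Alternatives were DESeq2 1.42.0, scaling by RLE, all genes without a filter, a minimum of 10 counts per library, fits restricted to the time points in question, a replicate block, 4 h and 8 h as 1 group, and leaving out each library. The comparison of 8 h with 4 h and the use of canonical transcript lengths were added after seeing the data. Genes of the lists were named by the rule of largest change among those called, 2 to 4 a list; genes of similar pattern are the 3 highest by Pearson's r. Those of DUSP1 are not reported here. Members and lists were chosen with earlier results of these data known.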

Additional observations from a re-analysis of the deposited data

Results flagged for a closer look

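For 11 changes among the 9 genes, the test of the interaction of line and time found a difference between T-47D and Ishikawa cells. Of all 17090 genes tested, 2.67% differed at 2 h, 6.03% at 4 h and 10.0% at 8 h. At 2 h the log2 fold change of DUSP5 was lower in T-47D cells, by -0.70, while those of SPRY1 and SPRY2 were higher, by 0.67 and 1.49. At 4 h the differences (T-47D minus Ishikawa) were -0.76 for DUSP1, -1.04 for DUSP5, 0.92 for SPRY2 and -0.56 for SPRED2. At 8 h they were -0.61 for DUSP1, 1.41 for DUSP4, -0.59 for DUSP5 and 1.74 for SPRY2. The 3 differences of a gene share the 0 h libraries of both lines. Leaving out single libraries ended the calls of DUSP5 and SPRY1 at 2 h, DUSP1 and SPRY2 at 4 h, and DUSP1 and DUSP5 at 8 h. No reason for the differences was tested.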

How the results depend on the processing

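With 2 libraries a group, single libraries decide many calls. Of the values of the 9 genes that were called, leaving out 1 library kept 542 and ended 50, and the other alternatives kept 317 and ended 4. These counts include the difference between lines at 0 h, where leaving out a library ended no call. They also include fits without a library that is no term of the comparison. The fits with a replicate block called 606, 2044 and 3237 genes for Ishikawa at the 3 times, 1324, 3166 and 4495 for T-47D, 596 and 1819 for the late mean against 2 h in each, 411, 934 and 1554 for the difference between lines and 13470 at 0 h, and no count over the 9 genes changed with the block. The replicate numbers do not pair the samples, with correlations of deviations from -0.114 to 0.0596.

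No filter gave 1162 genes for 686 at 2 h in Ishikawa cells and 1405 for 714 in the late mean against 2 h, and 4 h and 8 h as 1 group gave 4055 for 2251 at 4 h. Leaving out each library gave in Ishikawa cells 322 to 1735 genes at 2 h, 1002 to 2995 at 4 h, 1409 to 4234 at 8 h and 125 to 1117 for the late mean against 2 h, and of the 9 genes 1 to 2 at 4 h, 1 to 3 at 8 h and 3 to 5 for the late mean. In T-47D cells it gave 816 to 1798 genes at 2 h, 1821 to 3853 at 4 h and 752 to 2176 for the late mean, and of the 9 genes 1 to 4 at 2 h and 2 to 6 for the late mean. For the difference between lines it gave 658 to 1177 genes at 4 h, and of the 9 genes 1 to 3 at 2 h and 2 to 4 at 8 h. The cause was not tested.

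Values that were not called changed sign. SPRED1 at 2 h in Ishikawa cells was -0.000212 with RLE scaling, -0.00996 with no filter, -0.00451 with at least 10 counts in every library, -0.000177 with DESeq2 and -0.00144 in the fit restricted to 0 h and 2 h. SPRY4 at 8 h was -0.00146 with no filter in Ishikawa cells and 0.12 with 4 h and 8 h as 1 group in T-47D cells. Leaving out single libraries in Ishikawa cells gave DUSP1 -0.26 to 0.086 at 2 h, -0.033 to 0.090 at 4 h and -0.027 to 0.32 for the late mean, DUSP4 -0.20 to 0.094 at 4 h and -0.32 to 0.055 at 8 h, DUSP5 -0.00388 to 0.23 at 8 h, DUSP6 -0.24 to 0.14 at 4 h and -0.18 to 0.13 at 8 h, SPRY4 -0.048 to 0.22 at 4 h and -0.17 to 0.17 at 8 h, SPRED1 -0.063 to 0.072 at 2 h, and SPRED2 -0.032 to 0.089 at 4 h and -0.073 to 0.11 at 8 h. In T-47D cells it gave SPRY2 -0.045 to 0.27 and SPRED1 -0.48 to 0.075 at 2 h, SPRY4 -0.27 to 0.65 at 4 h and SPRED2 -0.032 to 0.17 for the late mean. For the difference between lines it gave SPRY1 -0.063 to 0.20 at 4 h and -0.23 to 0.017 at 8 h, SPRY4 -0.36 to 0.58 at 4 h and -0.30 to 0.028 at 8 h, and SPRED1 -0.47 to 0.083 at 2 h. SPRY4 in T-47D cells is limited by depth, at 11 to 26 counts per library.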
